A study of Mus musculus with 4 samples.

Results

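The 44 genes described here encode carriers of the SLC25 family, each measured by a probe set that the platform annotation ties to a single symbol of the form Slc25a followed by a number. They were chosen by symbol out of 19938 genes with such a probe set, and each gene was represented by its brightest probe set on average over the 4 arrays. Slc25a37 and Slc25a38, which serve iron and glycine supply for heme, were left out by the rule. Slc25a5 had 3 probe sets, Slc25a36 and Slc25a40 had 2 each, and every other member had 1. The RNA came from early erythroid progenitors of C57BL/6 mouse fetal liver at E14.5. In the RBP group (2 arrays) RNA was immunoprecipitated from the cell lysate with an antibody specific for an RNA-binding protein, and in the IgG group (2 arrays) with control rabbit IgG. Both groups came from the same kind of sorted cells, positive for c-Kit and low for CD71 after magnetic removal of lineage-positive and other progenitor cells. The labels leave the protein unnamed. From knowledge of the published study it is probably ZFP36L2, a zinc finger protein that binds AU-rich elements of mRNAs, and this identity was not checked. RNA of the unprecipitated lysate was not analysed here, so a difference between the groups is one between 2 kinds of immunoprecipitate.

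SLC25 proteins sit for the most part in the inner mitochondrial membrane, where they exchange nucleotides, phosphate, carboxylic acids, amino acids, acylcarnitines and cofactors between cytosol and matrix. They are built from repeated pairs of membrane-spanning helices and carry no cleaved presequence in most cases, and they reach the inner membrane through the TOM complex, the small TIM chaperones and the TIM22 complex. In erythroid cells, mitochondria start and finish the synthesis of heme, which draws on succinyl-CoA from the citric acid cycle.

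Values are RMA summaries on a log2 scale, so a difference of 1 stands for a 2-fold change. The background level used below is 5.36, the 95th percentile of the mean levels of 1246 chemosensory receptor genes, a family known from sensory cells. The median over all genes was 6.05 and 6.02 on the RBP arrays and 6.10 and 6.04 on the IgG arrays, and the interquartile range over all genes was 3.63 and 3.55 with RBP, against 2.69 and 2.69 with IgG. All 8 erythroid progenitor markers lay above background, with mean levels from 9.31 to 11.41. Of these 8, 4 were higher on the RBP arrays, against 54.1% of the 2555 genes with a mean level above 9. Markers of other cells were also detected, namely 3 of 5 of hepatocytes, 3 of 6 of macrophages, 2 of 4 of megakaryocytes, 4 of 6 of granulocytes and mast cells, 4 of 4 of lymphoid cells and 4 of 5 of endothelial and stromal cells. Afp, Ttr, Adgre1, Mrc1, C1qa, Pf4, Ppbp, Fcer1a, Ltf and Kdr were at or below background. Of the markers of other cells, the test called Cd68 of macrophages lower (-1.59, limma adjusted p = 0.00568), Elane of granulocytes lower (-1.44, adjusted p = 0.0461) and Gp9 of megakaryocytes higher (0.82, adjusted p = 0.0141), while Mpo, also of granulocytes, differed by 0.06 (adjusted p = 0.914). The mean of the granulocyte and mast cell markers was 7.44 and 6.85 on the RBP arrays and 8.08 and 7.22 on the IgG arrays. For the erythroid markers it was 10.27 and 10.42 on the RBP arrays and 9.70 and 9.85 on the IgG arrays. The part of other cells in the values below was not tested. Fewer cells of a type cannot be told apart from less RNA per cell, or from a different recovery by the RBP antibody and IgG.

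The comparison asked which carrier mRNAs the RBP antibody recovered to a different degree than control IgG. Of the 44 carriers 15 (34.1%) were higher with the RBP antibody than with IgG (limma's moderated test, adjusted p under 0.05), and 0 were lower. Over all 19938 genes 23.8% were higher and 6.54% were lower. The 15 had differences from 0.54 to 1.73, or 1.45-fold to 3.32-fold. Slc25a16 and Slc25a24 had the largest differences. At an unadjusted p under 0.05, 18 members were higher and 2 were lower. The share of all genes at this threshold was not computed. The 2 lower were Slc25a30 and Slc25a42. These 2 were also called lower with the replicate number as a block, where 2199 of all genes were lower. The median difference of the 44 was 0.35, against -0.02 over all genes. Among members and genes with a mean level above background it was 0.49 for 37 members and 0.40 for 12840 genes, and 15 of those 37 members (40.5%) were higher, against 36.5% of those genes, with 0 members and 6.55% of those genes lower.

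Both RBP arrays lay above both IgG arrays for 24 members and below them for 8, and the groups overlapped for 12. Over all genes 37.4% lay above and 36.2% below in this way. With a size of at least 2-fold added, 8 members were higher and 0 lower, against 13.5% and 1.23% of all genes. The arrays of a group differed for a carrier by 0.20 on average within the RBP pair and by 0.34 within the IgG pair. The labels do not say whether replicate arrays stem from independent sorts of cells, so the p-values cover only the spread of these arrays, part of which may be technical. An exact two-sided permutation test of 2 arrays against 2 cannot give a p below 0.333, so the calls rest on the variance that limma shares across genes.

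**Figure D1:**
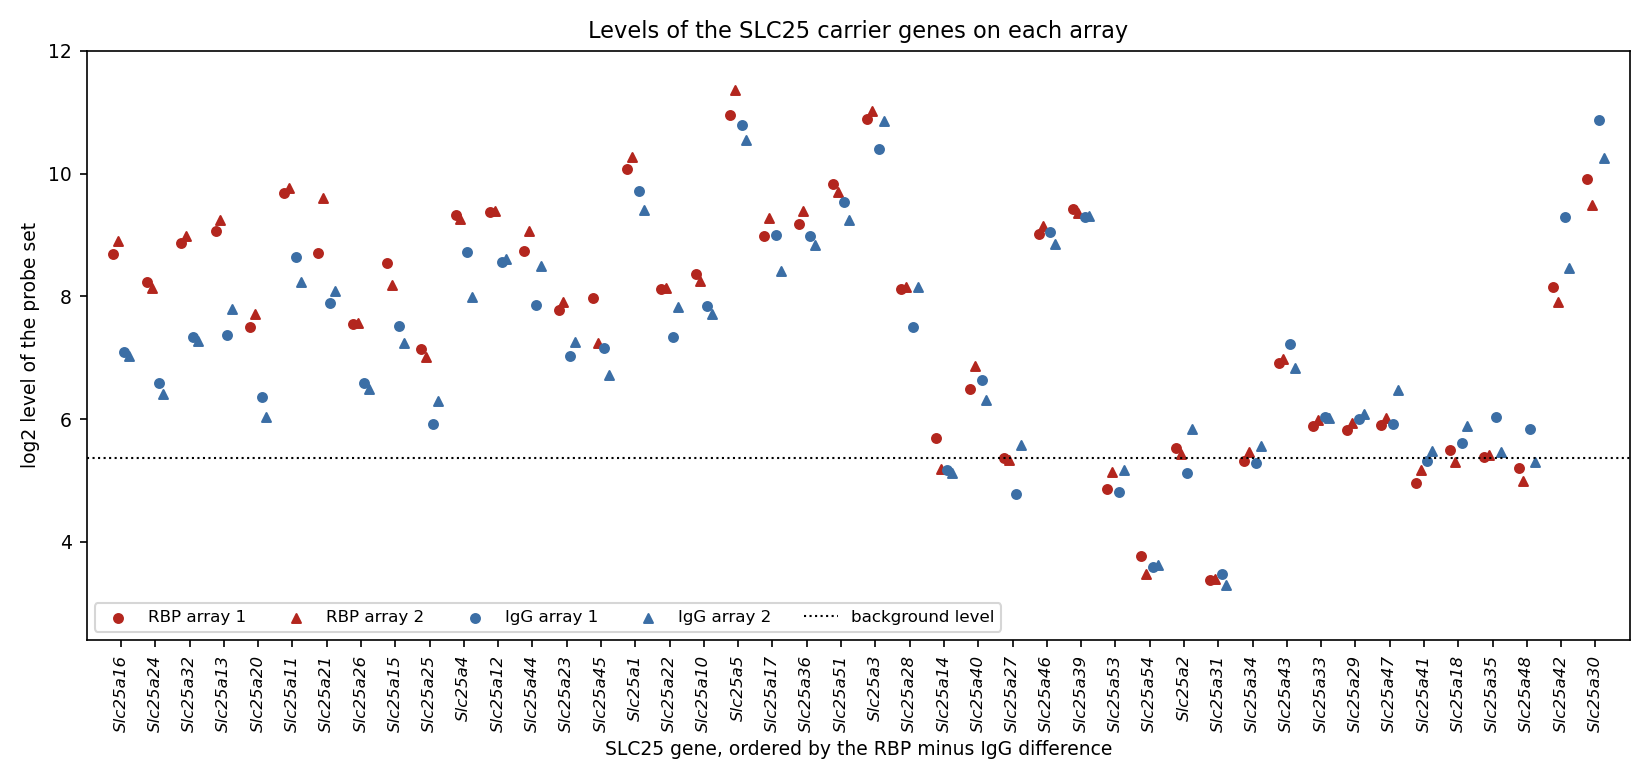
Log2 level of each of the 44 carrier genes on the RBP arrays (red) and the IgG arrays (blue), ordered from the largest positive to the most negative RBP minus IgG difference. The groups lie well apart from Slc25a16 to Slc25a11 at the left. The 13 carriers with mean levels under 6, of which 7 lie at or below the dotted background level of 5.36, have differences from -0.47 to 0.29. Slc25a42 and Slc25a30 at the right have both RBP arrays below both IgG arrays.

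The adenine nucleotide and phosphate carriers supply the matrix with ADP and phosphate for ATP synthesis. Of these 4, 1 was higher. Slc25a4, the ADP/ATP exchanger ANT1, had levels of 9.33 and 9.27 on the RBP arrays, against 8.73 and 7.98 on the IgG arrays. The IgG arrays of Slc25a4 lay further apart than the RBP arrays did, and the difference was 0.94 ± 0.26 (SE; limma, adjusted p = 0.0426). Its close paralog Slc25a5, ANT2, had 10.95 and 11.36 on the RBP arrays and 10.79 and 10.55 on the IgG arrays. The groups of Slc25a5 did not overlap, but the difference of 0.49 ± 0.20 did not pass (limma, adjusted p = 0.112). Its other probe sets gave 0.62 and 0.43, and near-identical gene copies could contribute to all 3. The phosphate carrier Slc25a3 had 10.88 and 11.01 on the RBP arrays and 10.39 and 10.85 on the IgG arrays. Its difference of 0.32 ± 0.20 missed the threshold too (limma, adjusted p = 0.251), and the value turned on the IgG arrays, with 0.56 (adjusted p = 0.0408) without IgG array 2 and 0.09 (adjusted p = 0.633) without IgG array 1. The germ cell exchanger Slc25a31 was below background on every array, between 3.30 and 3.47. The call of Slc25a4 was lost when RBP array 1 or RBP array 2 was left out (adjusted p = 0.164 and 0.129), and its difference was 0.57 without IgG array 2 (adjusted p = 0.0333).

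The ATP-Mg/phosphate carriers adjust the adenine nucleotide pool of the matrix, and Slc25a23, Slc25a24 and Slc25a25 are regulated by calcium. All of these 3 were higher. Slc25a24 had 8.24 and 8.14 on the RBP arrays and 6.58 and 6.40 on the IgG arrays. This gap of 1.70 ± 0.15, or 3.25-fold, was far wider than the spread within either group (limma, adjusted p = 0.00558). Slc25a25 had 7.14 and 7.01 on the RBP arrays and 5.93 and 6.29 on the IgG arrays, a difference of 0.97 ± 0.18 (limma, adjusted p = 0.0135). Slc25a23 differed by 0.71 ± 0.16 (limma, adjusted p = 0.0234). The calcium-independent Slc25a41, at a mean level below background, gave -0.34 ± 0.16 and did not pass. Without RBP array 1 or RBP array 2 the calls of Slc25a23 (adjusted p = 0.127 and 0.175) and Slc25a25 (0.0973 and 0.0643) were lost, and that of Slc25a24 was kept.

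Among the 6 carriers grouped as di- and tricarboxylate carriers, 4 were higher. Slc25a11, the malate/oxoglutarate exchanger of the malate-aspartate shuttle, had 9.68 and 9.76 on the RBP arrays and 8.64 and 8.24 on the IgG arrays. It differed by 1.28 ± 0.18, or 2.44-fold (limma, adjusted p = 0.00718). Slc25a21, which carries oxoadipate and oxoglutarate, had 8.71 and 9.60 on the RBP arrays and 7.89 and 8.09 on the IgG arrays. Its RBP arrays lay further apart than those of any other member, and the difference was 1.16 ± 0.30 (limma, adjusted p = 0.0352). Leaving out RBP array 2 reduced it to 0.72 (adjusted p = 0.133), and the call was also lost without IgG array 1 or IgG array 2 (adjusted p = 0.0943 and 0.0601).

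Slc25a1, the citrate carrier that exports citrate for lipid synthesis, had 10.08 and 10.26 on the RBP arrays and 9.71 and 9.40 on the IgG arrays. The dicarboxylate carrier Slc25a10 had 8.37 and 8.26 on the RBP arrays and 7.84 and 7.71 on the IgG arrays. Both passed narrowly, Slc25a1 with 0.61 ± 0.18 (limma, adjusted p = 0.0468) and Slc25a10 with 0.54 ± 0.15 (adjusted p = 0.0430). Without IgG array 2 (adjusted p = 0.0732 and 0.0575), RBP array 1 (0.167 and 0.307) or RBP array 2 (0.276 and 0.196) neither passed. Slc25a34 and Slc25a35, carriers of uncertain substrate, had mean levels of 5.41 and 5.57, just above background, with differences of -0.03 and -0.36 that did not pass.

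The carriers grouped here as amino acid carriers were split. Of these 9, 3 were higher and 6 did not pass. Slc25a13 and Slc25a12, known as citrin and aralar, export aspartate in exchange for glutamate and are the partners of Slc25a11 in the malate-aspartate shuttle. Slc25a13 had 9.06 and 9.25 on the RBP arrays and 7.36 and 7.79 on the IgG arrays, a difference of 1.58 ± 0.20 (limma, adjusted p = 0.00596). Slc25a12 had 9.37 and 9.39 on the RBP arrays and 8.55 and 8.60 on the IgG arrays, a difference of 0.80 ± 0.14 (limma, adjusted p = 0.0116). The arrays of Slc25a12 agreed closely within each group, and its difference was the smaller of this pair, although the gap between the 2 paralogs was not tested. The ornithine carrier Slc25a15, needed for the urea cycle in liver, had 8.54 and 8.18 on the RBP arrays and 7.52 and 7.24 on the IgG arrays. It differed by 0.98 ± 0.19 (limma, adjusted p = 0.0159). Slc25a12 lost its call without RBP array 1 or RBP array 2 (adjusted p = 0.100 and 0.0988), and Slc25a15 without RBP array 1 (adjusted p = 0.119).

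Neither of the glutamate carriers Slc25a22 and Slc25a18 passed. Slc25a22 had 8.13 and 8.14 on the RBP arrays and 7.34 and 7.83 on the IgG arrays, with a difference of 0.55 ± 0.20 that did not pass (limma, adjusted p = 0.0905). Slc25a18 stayed near background, with 5.50 and 5.29 on the RBP arrays and 5.61 and 5.88 on the IgG arrays. Slc25a44, a carrier of branched-chain amino acids, differed by 0.73 ± 0.25, which missed the threshold (limma, adjusted p = 0.0763). Without IgG array 2 both Slc25a22 (0.80, adjusted p = 0.0157) and Slc25a44 (1.05, adjusted p = 0.0184) passed, and without IgG array 1 they had 0.30 (adjusted p = 0.143) and 0.42 (adjusted p = 0.151). The basic amino acid carrier Slc25a29, the second ornithine carrier Slc25a2 and Slc25a48 had mean levels between 5.33 and 5.96, and their differences of -0.16, 0.00 and -0.47 did not pass. With IgG array 2 left out, the differences were -0.74 for Slc25a48, with a mean level below background, and -0.64 for Slc25a35. With IgG array 1 left out they were -0.20 and -0.07.

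Slc25a20 exchanges acylcarnitines for carnitine and so admits long-chain fatty acids for oxidation. It was higher, with 7.51 and 7.71 on the RBP arrays and 6.36 and 6.04 on the IgG arrays, a difference of 1.41 ± 0.18, or 2.65-fold (limma, adjusted p = 0.00610). Neither of its relatives passed. Slc25a45 differed by 0.68 ± 0.29, with RBP arrays at 7.98 and 7.25, and Slc25a47 by -0.24 ± 0.22.

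**Figure D2:**
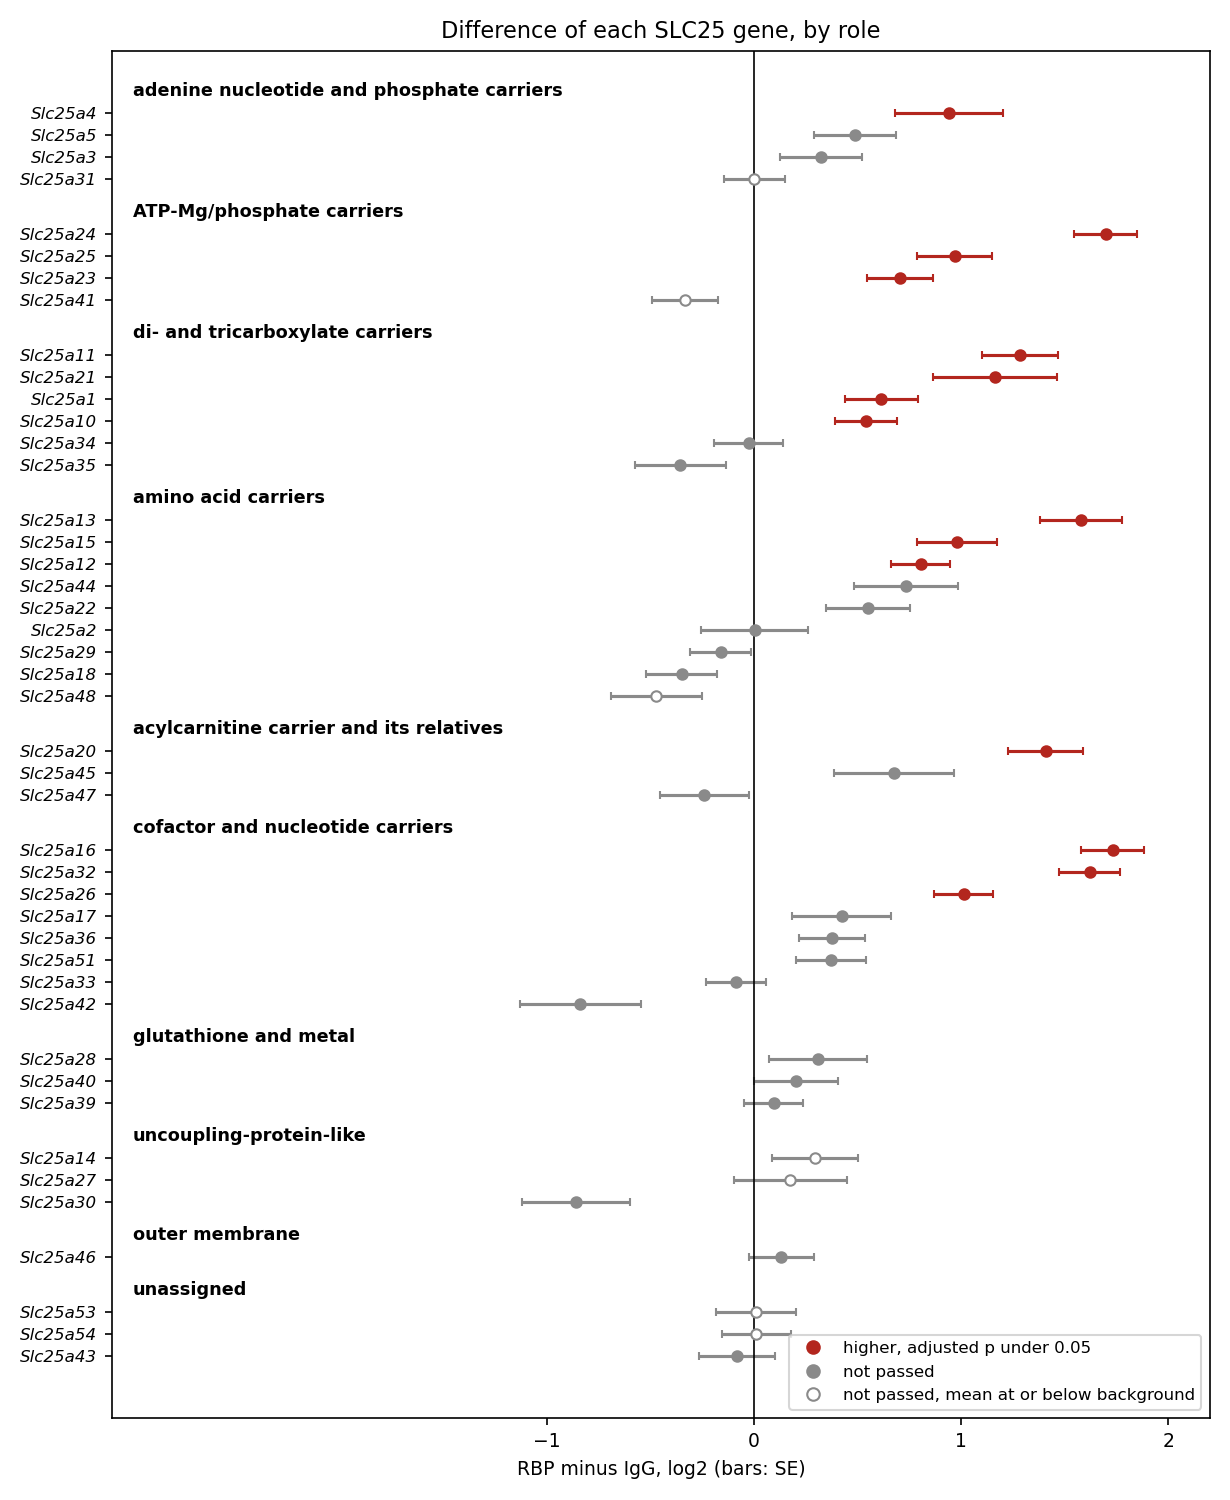
RBP minus IgG difference of each carrier on the log2 scale with its standard error from limma, grouped by role, red where the adjusted p was under 0.05 and grey otherwise; open circles mark mean levels at or below background. The called carriers fall in 6 of the 10 role groups, and no carrier is called on the left of 0.

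The cofactor and nucleotide carriers included the most positive difference of the family and the second most negative. Of 8, 3 were higher and 5 did not pass. Slc25a16 had 8.69 and 8.89 on the RBP arrays and 7.10 and 7.03 on the IgG arrays, the widest gap of the 44 at 1.73 ± 0.15, or 3.32-fold (limma, adjusted p = 0.00558). Its role in coenzyme A supply is inferred from a yeast relative. Slc25a42, the coenzyme A carrier, went the other way, with 8.15 and 7.91 on the RBP arrays and 9.29 and 8.45 on the IgG arrays. Both RBP arrays of Slc25a42 lay below both IgG arrays, but the IgG arrays were 0.83 apart. Its difference of -0.84 ± 0.29 did not pass (limma, adjusted p = 0.0780). Slc25a42 was called lower (limma, adjusted p = 0.00329) with the replicate number as a block, where variance shared across genes weighed more. With IgG array 2 left out it was called lower (-1.26, adjusted p = 0.0105), and with IgG array 1 left out the difference was -0.42 (adjusted p = 0.112).

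Slc25a32, the carrier of folate and FAD, had 8.86 and 8.98 on the RBP arrays and 7.34 and 7.27 on the IgG arrays. The groups were far apart, by 1.62 ± 0.15, or 3.07-fold (limma, adjusted p = 0.00558). Slc25a26, which imports the methyl donor S-adenosylmethionine, had 7.54 and 7.56 on the RBP arrays and 6.58 and 6.49 on the IgG arrays, a difference of 1.01 ± 0.14 (limma, adjusted p = 0.00696). This call was narrowly lost without RBP array 1 or RBP array 2 (adjusted p = 0.0578 and 0.0560).

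The pyrimidine nucleotide carriers did not pass. Slc25a36 had 9.17 and 9.39 on the RBP arrays and 8.98 and 8.83 on the IgG arrays, a difference of 0.38 ± 0.16 (limma, adjusted p = 0.126), and its second probe set gave 0.09. Its paralog Slc25a33 had 5.89 and 5.98 on the RBP arrays and 6.03 and 6.01 on the IgG arrays, a difference of -0.09 ± 0.14. Slc25a51, the NAD carrier, differed by 0.37 ± 0.17 (limma, adjusted p = 0.145). Slc25a17, which works in peroxisomes and not in mitochondria, differed by 0.42 ± 0.24 (limma, adjusted p = 0.222) with overlapping groups. Both passed without IgG array 1 (0.52, adjusted p = 0.0499 for Slc25a51 and 0.72, adjusted p = 0.0412 for Slc25a17), and without IgG array 2 they had 0.22 (adjusted p = 0.256) and 0.13 (adjusted p = 0.598).

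None of the 3 carriers of glutathione and iron passed. Slc25a39, which imports glutathione, had 9.43 and 9.36 on the RBP arrays and 9.29 and 9.31 on the IgG arrays, a difference of 0.09 ± 0.14 (limma, adjusted p = 0.621). Its paralog Slc25a40 had 6.49 and 6.86 on the RBP arrays and 6.63 and 6.31 on the IgG arrays, and the groups overlapped. The dimmer probe set of Slc25a40, with a mean level of 5.40, gave 0.46. Slc25a28, mitoferrin-2, an iron importer, differed by 0.31 ± 0.24 with overlap, and passed only in the test without IgG array 2 (0.63, adjusted p = 0.0261), against -0.01 without IgG array 1 (adjusted p = 0.949). Slc25a46, an outer membrane protein linked to mitochondrial shape, gave 0.13 ± 0.16 with overlapping groups.

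Of the relatives of the uncoupling proteins, which dissipate the proton gradient, Slc25a30 was the carrier with the most negative difference. It had 9.91 and 9.48 on the RBP arrays and 10.87 and 10.25 on the IgG arrays. Both RBP arrays lay below both IgG arrays, and the difference of -0.86 ± 0.26 did not pass (limma, adjusted p = 0.0547). Slc25a30 was called lower (limma, adjusted p = 0.00163) with the replicate number as a block, where variance shared across genes weighed more. Without IgG array 2 it passed (-1.17, adjusted p = 0.0202), and without IgG array 1 it had -0.55 (adjusted p = 0.115). Slc25a14 had 5.70 and 5.18 on the RBP arrays and 5.17 and 5.12 on the IgG arrays, near background. Slc25a27 was near background too, with overlapping groups and a difference of 0.18 ± 0.27, and passed as higher without IgG array 2 (0.58, adjusted p = 0.0319), against -0.23 without IgG array 1 (adjusted p = 0.244). The carriers Slc25a43, Slc25a53 and Slc25a54, for which no role is given here, had differences of -0.08, 0.01 and 0.01 with overlapping groups.

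Over the whole array the difference went with the level of a gene, and the carriers were spread over the range of levels. Of the 13 carriers with a mean level under 6, 0 were higher and the median difference was -0.03, against 2.04% of 9705 genes and a median of -0.23. Between 6 and 7, 2 of 5 carriers were higher, Slc25a20 and Slc25a25, against 23.4% of genes. From 7 to 9, 11 of 17 carriers (64.7%) were higher with a median of 0.80, against 51.6% of 4853 genes and a median of 0.72. Above 9, 2 of 9 carriers (22.2%) were higher with a median of 0.37, against 54.1% of 2555 genes and a median of 0.68. The carriers above 9 that did not pass were Slc25a3, Slc25a5, Slc25a30, Slc25a36, Slc25a39, Slc25a46 and Slc25a51. These shares are descriptions of few carriers, and no test of the difference between carriers and other genes was made.

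**Figure D3:**
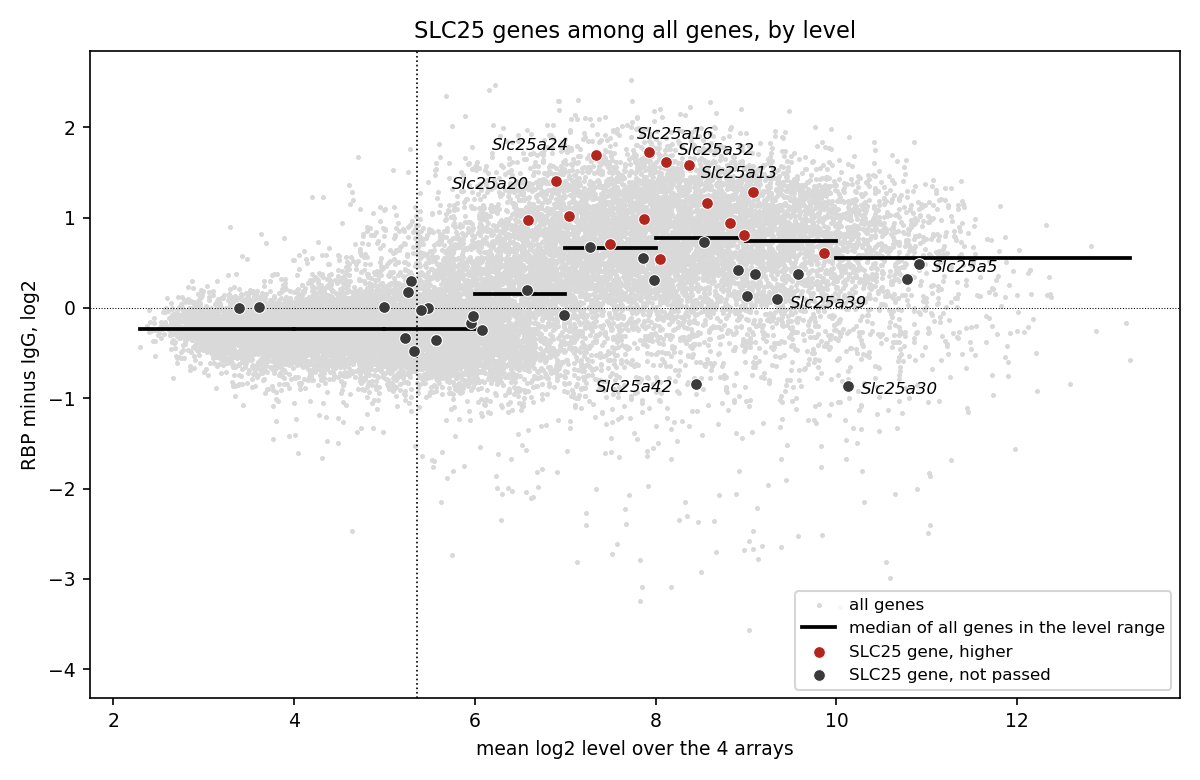
RBP minus IgG difference against mean log2 level for all 19938 genes (grey), with the median of all genes in each range of levels (black lines) and the 44 carriers (red where higher, dark where not passed). Slc25a24, Slc25a16, Slc25a32, Slc25a13 and Slc25a20 lie well above the median of genes at their level, and Slc25a42 and Slc25a30 lie well below it.

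With this trend on level removed over all genes by a loess curve, 4 carriers remained higher and 3 were lower, against 5.01% and 5.34% of all genes. The 4 were Slc25a24 (1.12, limma adjusted p = 0.0195), Slc25a20 (1.01, adjusted p = 0.0283), Slc25a16 (1.0, adjusted p = 0.0218) and Slc25a32 (0.87, adjusted p = 0.0261). The 3 lower were Slc25a42 (-1.62, adjusted p = 0.0293), Slc25a30 (-1.53, adjusted p = 0.0270) and Slc25a39 (-0.66, adjusted p = 0.0440). The median of the carriers was then 0.01. Slc25a13 (0.80, adjusted p = 0.0570) and Slc25a25 (0.75, adjusted p = 0.0560) fell just outside the threshold, while Slc25a12 (0.03) and Slc25a23 (0.07) were left with differences near 0. Quantile normalization gave 7 carriers higher and 2 lower, Slc25a30 and Slc25a42, and ended the calls of Slc25a1, Slc25a4, Slc25a10, Slc25a11, Slc25a12, Slc25a15, Slc25a21 and Slc25a23. Centring on the chemosensory genes gave 22 higher and 0 lower, against 7078 of all genes higher and 317 lower. Slc25a16, Slc25a20, Slc25a24 and Slc25a32 were the only called carriers that passed in all 11 alternatives. How many of all genes did so was not counted, and every alternative drew on the same 4 arrays.

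**Figure D4:**
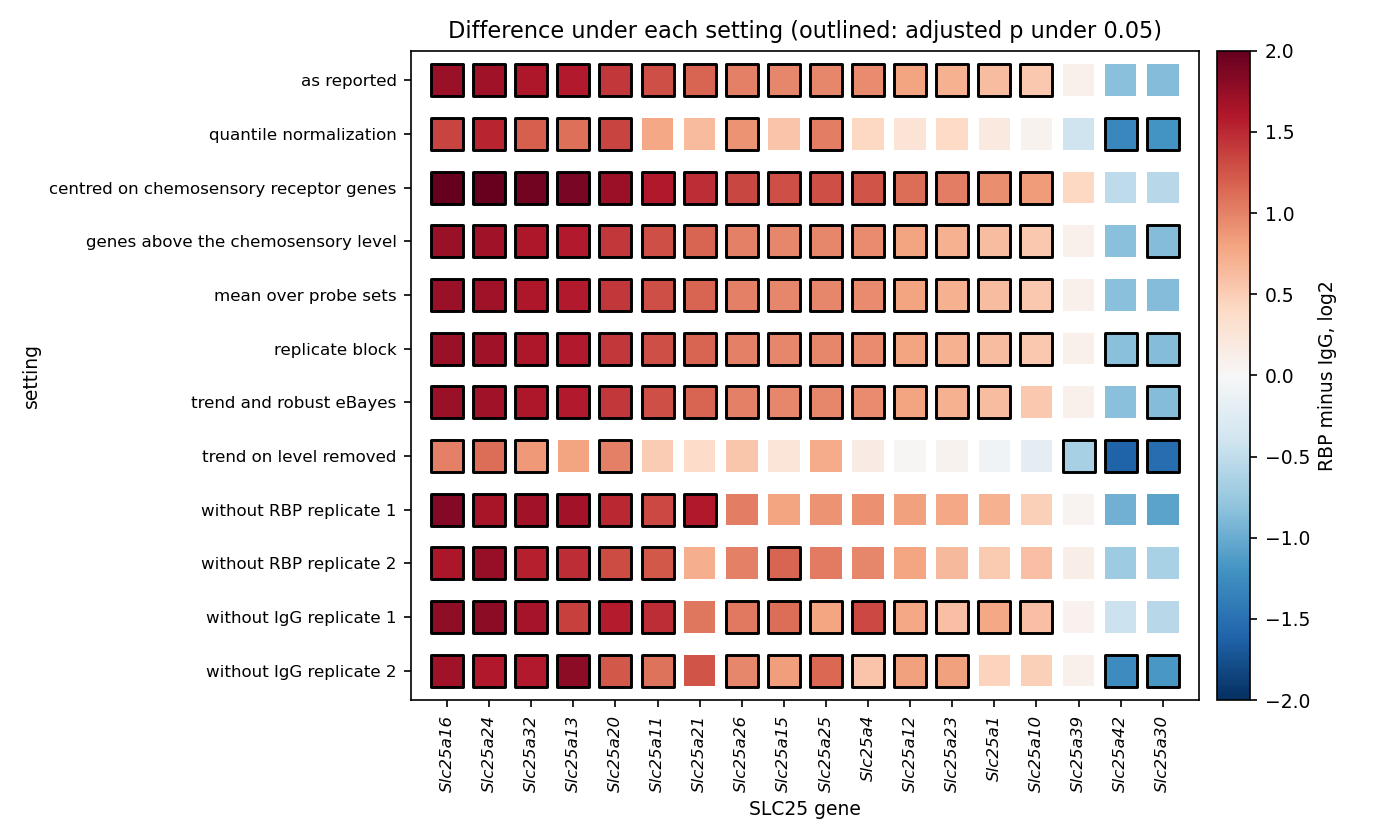
RBP minus IgG difference (colour, log2 scale) of the 15 called carriers and of Slc25a39, Slc25a42 and Slc25a30 in the reported fit and in the 11 alternatives, with an outline where the adjusted p was under 0.05. Slc25a16, Slc25a24, Slc25a32 and Slc25a20 are outlined in every row, and Slc25a42 and Slc25a30 are blue in every row.

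Other transport proteins of mitochondria and the import machinery were set beside the family. Of 21 measured genes of other carriers and channels, 9 were higher and 1 was lower, against 23.8% and 6.54% of all genes. The list includes Ucp1, Ucp3, Mtch1 and Mtch2, whose proteins belong to the SLC25 family under other symbols. The 9 were among the 18 genes of the list above background, where 36.5% of all genes were higher. The median level of the list was 8.10, and 51.6% of all genes from 7 to 9 were higher. Abcb10, an inner membrane ABC transporter of erythroid cells, had 9.59 and 9.54 on the RBP arrays and 7.80 and 7.76 on the IgG arrays, a difference of 1.79 ± 0.14 (limma, adjusted p = 0.00558). The ABC transporter Abcb6 differed by 1.75 ± 0.17 (adjusted p = 0.00558), the outer membrane carrier homolog Mtch1 by 1.22 ± 0.21 (adjusted p = 0.0112) and Abcb8 by 1.19 ± 0.21 (adjusted p = 0.0111). Mtch1 and Abcb8 lost their calls without RBP array 1 (adjusted p = 0.0684 and 0.0695), when 3 genes of the list were higher. The lower gene was Ucp3, an uncoupling protein of muscle, with 5.03 and 5.04 on the RBP arrays and 5.47 and 5.70 on the IgG arrays, around background. Its call was lost without IgG array 2 (adjusted p = 0.0576), RBP array 1 (0.255) or RBP array 2 (0.230).

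Of 26 genes of the import machinery that delivers carriers and other proteins to mitochondria, 12 were higher and 0 were lower. At an unadjusted p under 0.05, 0 were lower as well, and the share of all genes at this threshold was not computed. All 26 lay above background, where 36.5% of all genes were higher and 6.55% lower at an adjusted p under 0.05. Their mean levels ran from 6.87 to 11.10, and 51.6% of all genes from 7 to 9 and 54.1% above 9 were higher. Timm8a1, a small TIM chaperone, differed by 1.52 ± 0.22 (limma, adjusted p = 0.00742) and Hspa9, the matrix chaperone of the presequence import motor, by 1.27 ± 0.20 (adjusted p = 0.00889). Agk, a lipid kinase that is also a subunit of the TIM22 complex, differed by 1.08 ± 0.18 (adjusted p = 0.00991) and the small TIM chaperone Timm10 by 1.01 ± 0.21 (adjusted p = 0.0197). Without RBP array 1 the list had 1 gene higher, and Hspa9 (adjusted p = 0.0586), Agk (0.0793) and Timm10 (0.131) lost their calls, and without RBP array 2 it had 4. With the trend on level removed 0 of the 26 were higher and 3 were lower.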

How the data were processed

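RNA recovered by immunoprecipitation was hybridised to 4 Affymetrix whole-transcript arrays, 2 per group, with groups taken from the sample titles. The deposited values are log2 levels of 35556 probe sets that the authors made with RMA and affy, per the submitters' processing notes. Versions, background step and filters are not given in the labels, and the log2 scale was read from the values (1.83 to 13.87). Of the probe sets 21789 had 1 gene symbol, 1621 several and 12146 none in the platform annotation. No scanner files were used here.

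Differences (RBP minus IgG) were tested over all 19938 genes in R 4.3.3 with limma 3.58.1 (lmFit, eBayes), in a two-sided test. P-values were adjusted by Benjamini-Hochberg over all genes and called under 0.05. The median standard error was 0.170, and the number of arrays limited the precision. No filter on level was set. The code was tested on simulated data in which a small part of the genes was changed. Of log2 changes of 0.5 and 1 it recovered 0%, of 1.5 it recovered 73% and of 2 it recovered 91.5%. A larger part of all genes was called in the data, so these shares need not hold there. Alternatives were 2 scalings, a level filter (5.36), the mean over probe sets, a replicate block, leaving out each array, trend and robust options, and removal of a loess trend (span 0.3).

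The members and lists were chosen with earlier results of these data known. Per-array values were given for the 12 called members with the largest positive difference, called members with a negative one, the 4 with the brightest probe sets and 9 fixed pairs of relatives, and differences for up to 4 called genes of each other list. Ucp3 and some probe sets were added after their values were seen.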

Additional observations from a re-analysis of the deposited data

How the results depend on the processing

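Precision was limited by 2 arrays per group, and calls near the threshold depended on single arrays. Counts are of carriers called by limma unless said otherwise. Quantile normalization gave all genes a median difference of 0.16 and centring on the chemosensory genes one of 0.29, against -0.02 as reported. Leaving out each array gave 7 to 17 carriers higher and 0 to 4 lower, a median difference of the carriers of 0.28 to 0.37, 1724 to 5153 of all genes higher and 99 to 2905 lower, 3 to 10 of the other carriers and channels higher and 0 to 3 lower, and 1 to 14 import genes higher and 0 to 1 lower. Without RBP array 1 or RBP array 2, 8 of the 15 called carriers lost their calls in each case. Quantile normalization gave 7 carriers higher and 2 lower with a median of 0.26, 2207 of all genes higher and 553 lower, 2 other carriers and channels higher and 0 lower, and 2 import genes higher and 1 lower. The median of the carriers was 0.66 after centring on the chemosensory genes, where 22 were higher. In that fit 7078 of all genes were higher and 317 lower, and 0 other carriers and channels were lower. Among the 12840 genes above background 1 carrier, Slc25a30, was lower, against 916 of these genes. The median of the carriers was 0.49, and fewer genes were tested. With trend and robust options 1 carrier was lower, again Slc25a30, and 2 other carriers and channels were lower. In that fit 1728 of all genes were lower, against 1304 as reported. With the trend on level removed 4 carriers were higher and 3 lower with a median of 0.0069, 999 of all genes were higher, 2 other carriers and channels were higher and 2 lower, and 0 import genes were higher and 3 lower.

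The labels tie the replicate numbers to no shared preparation. The deviations of same-numbered arrays correlated at 0.26 over all genes, and the mean of each marker list differed between numbers 1 and 2 in the same direction in both groups. With the replicate number as a block, 18 carriers were higher and 2 lower, against 5885 of all genes higher and 2199 lower. The prior degrees of freedom, the weight limma gave to variance shared across genes, were 14.3 there, against 3.76 as reported. The median standard error was 0.187, against 0.170. Slc25a22 (limma, adjusted p = 0.0342), Slc25a44 (0.00558) and Slc25a45 (0.00931) were added to the 15. The 2 lower were Slc25a30 (adjusted p = 0.00163) and Slc25a42 (0.00329), and 3 other carriers and channels were lower.

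No called carrier turned negative in quantile normalization, centring or any fit that left out an array, but Slc25a1 (-0.086) and Slc25a10 (-0.21) did so with the trend on level removed. Members that were not called changed sign as follows. With the trend on level removed the values were -0.25 for Slc25a3, -0.070 for Slc25a5, -0.36 for Slc25a17, -0.17 for Slc25a22, -0.43 for Slc25a28, 0.022 for Slc25a33, 0.19 for Slc25a34, -0.39 for Slc25a36, -0.66 for Slc25a39, -0.0078 for Slc25a40, -0.047 for Slc25a44, -0.64 for Slc25a46 and -0.36 for Slc25a51. With quantile normalization they were -0.11 for Slc25a17, -0.15 for Slc25a28, 0.094 for Slc25a29, 0.17 for Slc25a33, 0.30 for Slc25a34, -0.16 for Slc25a36, -0.41 for Slc25a39, 0.00049 for Slc25a41, -0.40 for Slc25a46 and -0.089 for Slc25a51. After centring on the chemosensory genes they were 0.15 for Slc25a29, 0.23 for Slc25a33, 0.29 for Slc25a34, 0.23 for Slc25a43 and 0.074 for Slc25a47. Leaving out each array gave -0.36 to 0.36 for Slc25a2, -0.23 to 0.58 for Slc25a27, -0.012 to 0.63 for Slc25a28, -0.084 to 0.086 for Slc25a31, -0.16 to 0.11 for Slc25a34, -0.28 to 0.12 for Slc25a43, -0.51 to 0.030 for Slc25a47, -0.17 to 0.19 for Slc25a53 and -0.14 to 0.16 for Slc25a54. The cause of these changes was not tested.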
